A study of Mus musculus with 3 samples.

Results

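Isl1 binding was examined at 46 genes of the sarcomere and of calcium handling, which were chosen by name and looked up in the gene symbol column of 1 deposited peak list. Of 14082 distinct peaks in the list, 20 were assigned to these genes, and they fell on 13 genes. The other 33 genes had no assigned peak. Of the 13 genes, 7 had a peak within 1000 bp of the assigned transcription start site (TSS), called a promoter peak, namely Ryr2, Nebl, Pdlim5, Tpm2, Atp2a2, Flnc and Tpm1. Tcap, Mybpc3 and Sln had proximal peaks only, between 1 and 10 kb from the TSS, and Trdn, Jph2 and Myom2 had distal peaks only, beyond 10 kb.

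Isl1, a LIM-homeodomain protein, is a transcription factor that marks progenitors of the second heart field. Binding was mapped by ChIP-Seq in mouse cardiac progenitor cells (CPCs), which had been made from E14 Tg(Nkx2-5-EmGFP) embryonic stem cells by directed differentiation and taken at day 5. An anti-Isl1 antibody was used in 2 replicates, beside 1 input sample with no antibody, which makes 3 samples of this 1 reporter line. The list combines both replicates and holds no score or read number, so depth is unknown, no replicate error can be given and no comparison below has a test.

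The sarcomere is the contractile unit of heart and skeletal muscle. Thin filaments of actin, tropomyosin and troponin slide along thick filaments of myosin, titin spans from the Z-disc, where thin filaments are anchored, to the M-line, where thick filaments are joined, and calcium released from the sarcoplasmic reticulum through the ryanodine receptor starts each contraction. In the embryo many of these genes are switched on as cardiac progenitors turn into cardiomyocytes, whereas Isl1 marks the progenitor state.

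Peaks were assigned to a smaller share of these genes than of all protein-coding genes, a difference of counts in 1 list that has no test. A peak was assigned to 13 of 46 genes, or 28.3%, beside a background of 39.1% of 21027 protein-coding genes. Promoter peaks were found at 15.2% of the 46 genes, and the background was 24.2%. Peaks whose central sequence occurs once in the genome were present at 11 genes, 23.9% beside a background of 28.7%. At least 2 peaks were assigned to 2 genes, Jph2 and Myom2, which is 4.35% beside a background of 11%. Genes with distal peaks only, meaning more than 10 kb from the TSS, numbered 3, which is 6.52% beside 10.7%.

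The share of genes with a peak differed between the parts of the contractile apparatus, beside the background of 39.1% of protein-coding genes. Calcium handling had 5 of 7 genes with a peak (71.4%), and the Z-disc and cytoskeleton 4 of 10 (40%). The titin and M-line genes had 1 of 3 (33.3%), the thin filament 2 of 12 (16.7%) and the thick filament 1 of 10 (10%). Promoter peaks, with a background of 24.2%, were at 28.6% of calcium-handling genes and 30% of Z-disc and cytoskeleton genes. They were at 16.7% of thin filament genes and at 0% of the titin and M-line and of the thick filament genes. Neither of the 2 myosin assembly genes and neither of the 2 natriuretic peptide genes had an assigned peak. These counts are small and were not tested against each other.

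**Figure D1:**
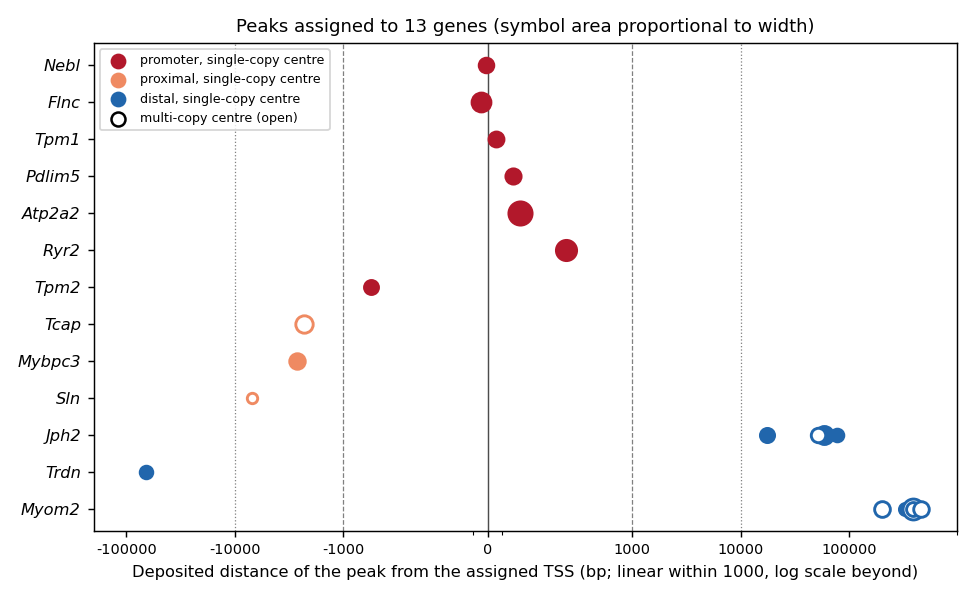
Position of each of the 20 peaks relative to the assigned TSS, in bp on an axis that is linear within 1000 bp and logarithmic beyond, with 1 row per gene and symbol area proportional to peak width. Filled symbols have a single-copy centre and open symbols a centre present at 2 or more places in the genome, and dashed and dotted lines stand at 1000 and 10000 bp. The 7 promoter peaks are all filled, whereas 4 of the 5 Myom2 peaks are open, and all 5 lie 202162 bp or more downstream.

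The sequences under the promoter peaks carried many CpG dinucleotides. They are shown here because promoter base composition differed between the genes with promoter peaks and most of the others, a difference that was not tested. Each line gives 200 bases of a peak on the strand of its gene, from the mm9 assembly and 5′ to 3′, in lower case with each CpG in capitals. The windows were taken at the peak midpoint or moved the least that kept them off annotated untranslated regions (UTRs). Exons of noncoding transcripts were not avoided, and the Nebl window contains the peak midpoint, which lies in such an exon of Nebl. They are chr2:17652671-17652870 for Nebl, chr6:29382953-29383152 for Flnc, chr9:66891770-66891969 for Tpm1, chr3:142058350-142058549 for Pdlim5, chr5:122952184-122952383 for Atp2a2, chr13:12198514-12198713 for Ryr2 and chr4:43537133-43537332 for Tpm2. Flnc is on the plus strand and the other 6 are on the minus strand.
Nebl: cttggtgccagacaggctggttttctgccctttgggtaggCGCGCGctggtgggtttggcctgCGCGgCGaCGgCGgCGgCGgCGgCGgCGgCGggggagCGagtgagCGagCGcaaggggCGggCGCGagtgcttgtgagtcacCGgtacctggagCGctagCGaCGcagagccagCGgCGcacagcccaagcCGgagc
Flnc: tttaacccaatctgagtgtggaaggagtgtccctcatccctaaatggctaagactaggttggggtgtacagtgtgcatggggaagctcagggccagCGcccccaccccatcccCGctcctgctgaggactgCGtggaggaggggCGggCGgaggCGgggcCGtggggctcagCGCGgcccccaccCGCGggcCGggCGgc
Tpm1: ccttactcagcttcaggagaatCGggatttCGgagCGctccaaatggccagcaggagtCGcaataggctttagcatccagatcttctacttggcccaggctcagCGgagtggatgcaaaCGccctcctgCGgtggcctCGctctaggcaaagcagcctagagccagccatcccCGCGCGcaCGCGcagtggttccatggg
Pdlim5: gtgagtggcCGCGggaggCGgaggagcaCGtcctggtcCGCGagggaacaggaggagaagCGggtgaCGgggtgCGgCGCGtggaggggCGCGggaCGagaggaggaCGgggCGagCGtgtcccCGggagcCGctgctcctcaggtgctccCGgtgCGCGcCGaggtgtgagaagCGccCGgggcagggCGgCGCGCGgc
Atp2a2: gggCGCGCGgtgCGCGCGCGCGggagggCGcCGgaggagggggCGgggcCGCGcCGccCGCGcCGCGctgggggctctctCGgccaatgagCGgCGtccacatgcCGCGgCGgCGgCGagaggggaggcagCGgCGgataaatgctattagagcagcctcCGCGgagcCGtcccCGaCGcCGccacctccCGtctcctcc
Ryr2: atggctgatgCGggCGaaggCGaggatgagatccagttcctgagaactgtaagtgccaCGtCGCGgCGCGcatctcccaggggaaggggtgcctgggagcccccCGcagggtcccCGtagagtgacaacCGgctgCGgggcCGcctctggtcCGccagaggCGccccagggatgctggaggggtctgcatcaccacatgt
Tpm2: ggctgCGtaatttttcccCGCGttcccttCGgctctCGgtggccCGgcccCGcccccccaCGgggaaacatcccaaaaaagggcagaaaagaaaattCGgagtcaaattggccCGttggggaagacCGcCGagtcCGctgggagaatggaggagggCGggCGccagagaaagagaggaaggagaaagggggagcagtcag

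These windows held between 13 and 35 CpG in 200 bases, with 35 in Atp2a2, 29 in Pdlim5 and 27 in Nebl. For contrast, 200 bases are given from before the start of Ttn and of Actc1, which had no assigned peak. They come from the RefSeq promoters of the GRCm38 assembly, both on the minus strand, at chr2:76982548-76982747 and chr2:114052876-114053075. Unlike the windows above, they were placed by a TSS and not by a peak. They do not stand for every gene without a peak, since the promoter of Tpm4, described below, was 74.3% GC. The paper, citing earlier work, describes a Ttn promoter region as bound by Isl1. In this list the nearest peak was 110002 bp from a Ttn TSS. The paper also names Ttn, Tmod1, Ryr2, Tpm1 and Mybpc3 as Isl1 targets, of which the first pair had no assigned peak here. Its targets rest on ChIP-Seq of embryos as well as of CPCs, and this list covers CPCs only. Ttn held 3 CpG and Actc1 held 2. Actc1 was 63% GC, and the Tpm1 window above, with 13 CpG, was 60.5% GC. That Tpm1 window had been moved 252 bp from the peak midpoint, and the central 200 bases of the peak itself were 73% GC. The Actc1 bases shown belong to the downstream of its annotated starts, and in the promoter counts further on its group is represented by the most upstream start, at 44.7% GC.
Ttn: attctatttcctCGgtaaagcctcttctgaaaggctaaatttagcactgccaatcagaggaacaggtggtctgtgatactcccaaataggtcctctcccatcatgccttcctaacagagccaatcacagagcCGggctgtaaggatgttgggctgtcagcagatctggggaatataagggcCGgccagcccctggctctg
Actc1: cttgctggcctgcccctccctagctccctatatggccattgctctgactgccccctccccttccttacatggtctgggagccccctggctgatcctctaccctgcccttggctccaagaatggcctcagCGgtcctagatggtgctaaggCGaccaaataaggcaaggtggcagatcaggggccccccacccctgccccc

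Among thin filament genes, peaks were assigned to a pair of tropomyosins, the coiled-coil proteins that lie along actin and gate its contact with myosin. The Tpm1 peak, chr9:66891206-66892028, was 822 bp wide, and its midpoint was 61 bp from the assigned TSS. Tpm1 has 16 annotated protein-coding TSSs in a pair of groups that lie 5181 bp apart. The peak covered all 6 TSSs of the downstream group, whose transcripts encode 245 to 251 codons. None of the 10 TSSs of the upstream group, whose transcripts encode 281 to 326 codons, was covered, and the nearest peak was 5333 bp from that group. Tropomyosin genes are known for such alternative starts, the upstream of which gives the long forms that include the sarcomeric one. The promoter window was defined as 250 bases before to 50 bases after a TSS. Its GC content was 61% at the downstream group and 67.7% at the upstream one, so the group without a listed peak was no poorer in GC.

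Tpm2, which encodes beta-tropomyosin, had a peak of 721 bp at chr4:43536872-43537593, in intergenic sequence 806 bp upstream of the assigned TSS and 595 bp upstream of the closest annotated one. It covered none of the 4 annotated Tpm2 TSSs and was the only one of the 7 promoter peaks that covered no TSS of its gene. Its centre was 61.5% GC, lower than in all but 2.92% of promoter peaks in the list. Of the 20 peak centres, this alone held a CArG box, the recognition site of serum response factor, a regulator of muscle genes. The box lies at bases 73 to 82 of the Tpm2 sequence above. A CArG box was found in 0.135% of all peak centres.

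The third tropomyosin, Tpm4, had no assigned peak, and the nearest lay 135611 bp away. Its promoter window was 74.3% GC with a CpG observed/expected ratio of 0.73, the most GC-rich window of the 46 genes without a peak within 1 kb. The actins Actc1, Acta1 and Acta2 had no assigned peak, with nearest peaks at 39356, 35543 and 383188 bp. Tmod1 and Lmod2, which cap and elongate thin filament ends, lay 66437 and 67043 bp from the nearest peak.

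All 4 troponin genes lacked an assigned peak, but peaks assigned to neighbours lay near some of them. Tnnc1, which encodes the calcium-binding troponin subunit of heart muscle, had a peak 1727 bp upstream of its TSS. That peak, chr14:32019303-32020239, was assigned to Nisch, 241 bp from the Nisch TSS, and its midpoint was in a Nisch coding exon. Tnni1 and Tnnt2 lie side by side on chromosome 1, and the nearest peak to both was the promoter peak of the gene between them, Lad1, at 13778 bp from Tnni1 and 22040 bp from Tnnt2. For Tnni3, which encodes the cardiac inhibitory subunit, the nearest peak was 14507 bp away in a noncoding exon of Tnnt1.

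Of the thick filament genes, Mybpc3 alone had an assigned peak. Mybpc3 encodes cardiac myosin-binding protein C, which tunes crossbridge cycling. Its peak, chr2:90955203-90956089, lay 2655 bp upstream of the TSS, and the midpoint was in a UTR of the neighbouring gene Sfpi1. The peak was 886 bp wide with a centre of 73.5% GC, at the 57.3 percentile of width and the 85.2 percentile of GC among proximal peaks, those between 1 and 10 kb from the TSS.

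The genes of the cardiac myosin heavy chains, Myh6 (alpha) and Myh7 (beta), had no line in the list under their own names, yet each contained a peak. These genes lie in tandem on chromosome 14 and host the microRNAs Mir208a and Mir208b in their introns, and the peaks had been assigned to the microRNAs. The peak in Myh6, chr14:55569129-55569596, was 467 bp wide and its midpoint was in a Myh6 coding exon, 1383 bp from the Mir208a TSS. The peak in Myh7, chr14:55591496-55591899, was 403 bp wide, in a Myh7 coding exon 2916 bp from the Mir208b TSS. Both were narrow, at the 4.42 and 2.09 percentile of width over all peaks. The Myh7 peak lay 5933 bp upstream of a Myh6 TSS and 21688 bp downstream of a Myh7 TSS, so it was also the nearest peak to the start of Myh6.

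The Myh7 peak shares most of its sequence with Myh6. Over the 403 bp of the peak, 379 bases, or 94%, were identical to a stretch of Myh6 at chr14:55563087-55563489, with an unbroken identical run of 200 bases. The list held 0 peaks at that copy, and the nearest peak to its middle was 6074 bp away. The aligned stretches are shown on the minus strand of mm9 with the 5 differing bases in capitals, at chr14:55591695-55591854 in Myh7 and chr14:55563285-55563444 in Myh6. How the aligner placed reads between the copies was not tested.
Myh7: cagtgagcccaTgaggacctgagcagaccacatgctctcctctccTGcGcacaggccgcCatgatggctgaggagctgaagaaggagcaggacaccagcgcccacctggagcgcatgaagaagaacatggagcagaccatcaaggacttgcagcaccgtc
Myh6: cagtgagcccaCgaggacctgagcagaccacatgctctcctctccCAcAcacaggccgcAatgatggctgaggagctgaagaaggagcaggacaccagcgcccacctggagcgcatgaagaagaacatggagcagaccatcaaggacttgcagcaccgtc

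The remaining thick filament genes lay 18101 bp or more from a peak. Among the light chains, the nearest peak was 18101 bp from Myl3, 22275 bp from Myl2, 36735 bp from Myl7 and 70337 bp from Myl4. Mylk3, the cardiac light chain kinase, was 46378 bp from a peak. The nonmuscle heavy chain Myh10 was 63318 bp away and embryonic Myh3 was 371892 bp away. For Myl2, Myl4, Myh10 and Myh3 these nearest peaks had multi-copy centres, with 31-base stretches present at a median of 401, 937, 332.5 and 1594 places.

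**Figure D2:**
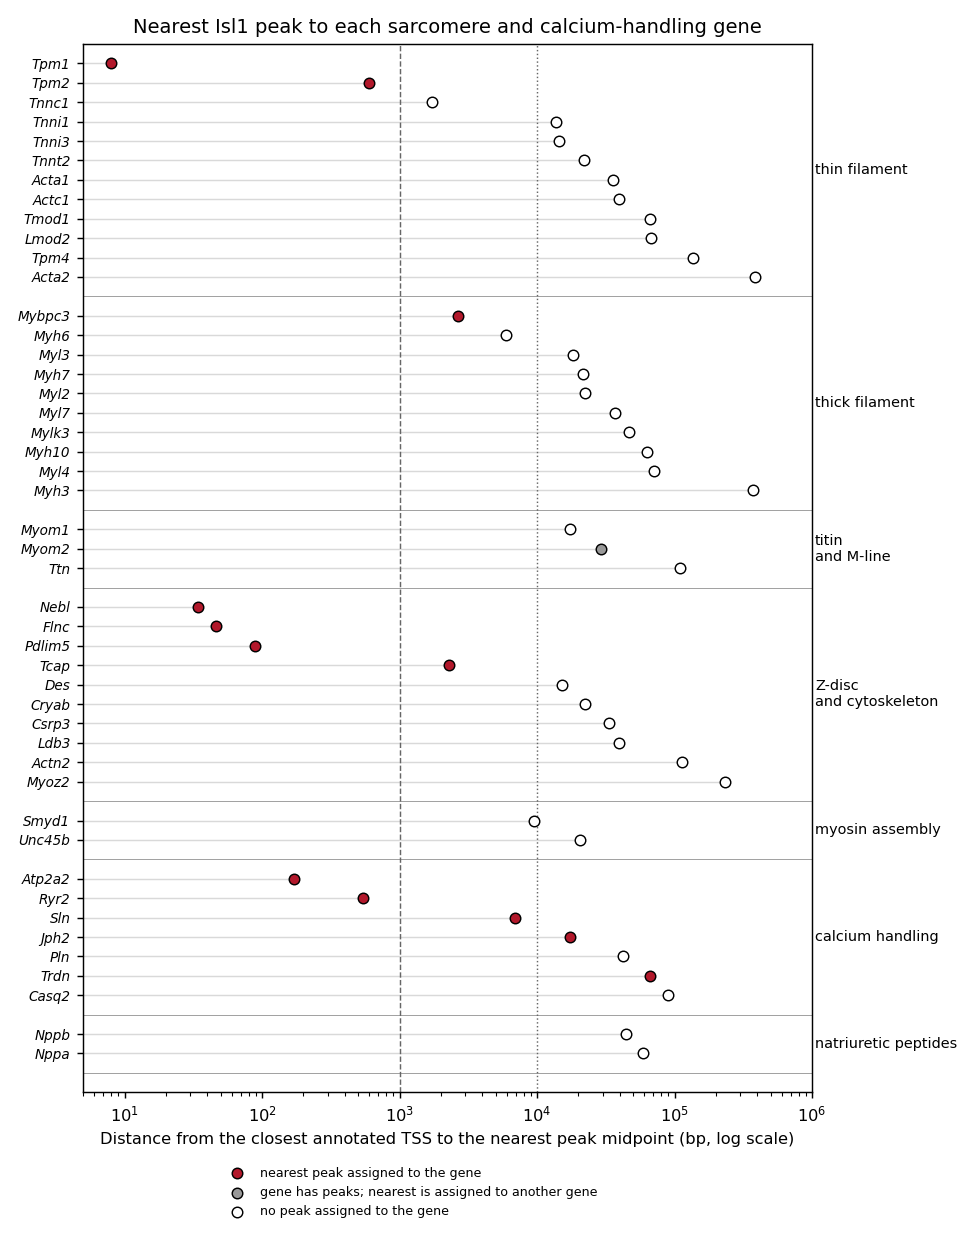
Distance in bp, on a log scale, from the closest annotated protein-coding TSS of each of the 46 genes to the nearest peak midpoint, whichever gene that peak was assigned to, with genes grouped by role. Red symbols mark genes whose nearest peak was assigned to them, the grey symbol marks Myom2, and open symbols mark the 33 genes with no assigned peak; the lines stand at 1000 and 10000 bp. Only 3 open symbols, Tnnc1, Myh6 and Smyd1, lie within 10000 bp.

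Titin and the M-line genes had no peak near a start. Ttn, the giant molecular spring of the sarcomere, has 14 annotated protein-coding TSSs, and the nearest peak was 110002 bp from the closest of them, in an intron of Ccdc141 at multi-copy sequence. Myom1, which crosslinks thick filaments at the M-line, lay 17228 bp from the promoter peak of Myl12a. Myom2 had the most assigned peaks of the 46 genes, namely 5, but all were 202162 to 456307 bp downstream of its TSS and 126274 to 380419 bp past the end of the gene. Their 31-base stretches occurred at a median of 134, 1, 795, 1891 and 113.5 places in the genome. A closer peak, 29229 bp upstream of Myom2 in a coding exon of Kbtbd11, was assigned to Kbtbd11.

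The centre of the Myom2 peak with the most copies, on the plus strand of mm9 at chr8:15449246-15449445, is shown as an example of sequence that recurs in the genome. It is 51.5% GC with 3 CpG in 200 bases, which are again in capitals. The list ties it to Myom2 by distance alone. How reads with several possible positions entered this peak was not tested.
Myom2: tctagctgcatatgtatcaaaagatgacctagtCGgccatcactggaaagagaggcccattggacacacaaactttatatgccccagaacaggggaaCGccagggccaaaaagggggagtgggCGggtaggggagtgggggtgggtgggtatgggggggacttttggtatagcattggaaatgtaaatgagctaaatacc

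Z-disc and cytoskeleton genes held 3 of the 7 promoter peaks. Nebl encodes nebulette, a Z-disc protein of heart muscle. Its peak, chr2:17652311-17653097, was 786 bp wide and 9 bp from the assigned TSS. It covered 1 of the 6 annotated Nebl TSSs, the most upstream, whose transcript has 270 codons. The other 5 TSSs were 136465 to 201097 bp from the nearest peak, and among them is the start of the longest open reading frame, of 1014 codons. The promoter window was 72.7% GC at the covered TSS and between 34.3% and 44.7% at the others. A short LIM-domain form of nebulette is known to start far upstream of the muscle form.

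Flnc encodes filamin C, an actin crosslinker of muscle. Its peak, chr6:29382451-29383763, was 1312 bp wide, 46 bp upstream of the assigned TSS, and covered both annotated TSSs. The centre was 77.5% GC. It was 1 of 2 peaks with an MCAT element, the string CATTCC bound by TEAD factors, and the other was the Mybpc3 peak.

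Pdlim5 encodes a PDZ and LIM domain protein that binds alpha-actinin. The peak, chr3:142058056-142058909, was 853 bp wide and 178 bp from the assigned TSS. It covered 4 of 5 annotated TSSs. The fifth, 3668 bp from the nearest peak midpoint, had a promoter window of 33.3% GC, against 67% at the covered group. In both Nebl and Pdlim5, and unlike Tpm1, the TSS group with the peak was the one richest in GC.

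Tcap, or telethonin, which anchors titin at the Z-disc, had a peak 2296 bp upstream at chr11:98242274-98243385. The peak was 1111 bp wide and its centre, 81.5% GC, was at the 98.7 percentile of GC among proximal peaks. Its 31-base stretches had a median of 8 copies in the genome, and its 75-base stretches a median of 1.

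The other Z-disc genes had no assigned peak. Des, which encodes the intermediate filament desmin, lay 15141 bp from the promoter peak of Speg. The nearest peak was 22262 bp from Cryab, a small heat shock protein gene, and 33408 bp from Csrp3, the muscle LIM protein gene. Ldb3, whose product binds alpha-actinin, held a peak in an intron, chr14:35362141-35362884, with a centre of 78.5% GC, but it was assigned to 9230112D13Rik at 26525 bp. Actn2, the muscle alpha-actinin, and Myoz2 were 113584 and 232414 bp from the nearest peak.

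The myosin assembly genes Smyd1 and Unc45b, a methyltransferase and a myosin chaperone, had no assigned peak, but each overlapped one. A peak at chr6:71221424-71222207 lies within the span of Smyd1, 9540 bp upstream of a Smyd1 TSS. It was assigned to Mir8112 and was 102 bp from a TSS of Krcc1, in a Krcc1 UTR. The peak inside Unc45b, chr11:82743543-82747170, was 3627 bp wide, at the 99.9 percentile of width over all peaks, and was assigned to Slfn5, whose TSS is 20248 bp away. It lay in an intron, 20601 bp from the closest Unc45b TSS, and was of single-copy sequence.

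Calcium-handling genes included the widest of the 20 peaks. Atp2a2 encodes SERCA2, the pump that returns calcium to the sarcoplasmic reticulum. Its peak, chr5:122951024-122953003, was 1979 bp wide, at the 96.3 percentile of promoter peaks, and covered the annotated TSS. The centre was 81% GC, at the 91.4 percentile, and the promoter window was 79.3% GC with a CpG observed/expected ratio of 1.04. Both inhibitors of this pump lacked a promoter peak. Pln, or phospholamban, had no assigned peak and lay 41844 bp from the peak of Cep85l. Sln, or sarcolipin, had a peak 6929 bp upstream, chr9:53690930-53691328, which at 398 bp was the narrowest of the 20 and had a median of 3 copies.

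Ryr2 encodes the cardiac ryanodine receptor, the calcium release channel. The peak, chr13:12197923-12199424, was 1501 bp wide, at the 84.8 percentile of promoter peaks. It covered the 1 annotated TSS, and its midpoint was 539 bp downstream of it in a coding exon. The printed Ryr2 sequence held an NK-2 type string, AAGTG, at bases 51 to 55.

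Trdn and Jph2 encode triadin and junctophilin 2, which organise the release channel and its membrane junction. Trdn had a single-copy peak of 583 bp at chr10:32736686-32737269, 66312 bp upstream of the TSS. A second peak lies in a Trdn intron, with a median of 18818 copies, and was assigned to Clvs2. Jph2 had 4 peaks, all distal, at 17486, 51758, 58407 and 77511 bp from the assigned TSS. The nearest and the second were intronic and the third, 1193 bp wide with a centre of 75% GC, was in a Jph2 coding exon. The fourth lay past the 3′ end of Jph2 in a coding exon of Tox2, 84 bp from an annotated Tox2 TSS. The peaks at 51758 and 58407 bp also lay closer to an annotated Tox2 TSS, at 25837 and 19188 bp, than to a Jph2 TSS. Of these 4, only the peak at 17486 bp had a Jph2 TSS as its closest annotated protein-coding TSS. The peak at 51758 bp alone had a multi-copy centre, with a median of 69.5 copies. Casq2, the calcium buffer calsequestrin, had no assigned peak and lay 89036 bp from one.

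The natriuretic peptide genes Nppa and Nppb, neighbours on chromosome 4, had no assigned peak. The nearest, the promoter peak of 2510039O18Rik, was 59422 bp from Nppa and 44488 bp from Nppb.

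Across all 46 genes the median distance from a TSS to the nearest peak was 22269 bp, and across 18116 protein-coding genes it was 28263 bp. A peak lay within 10 kb of a TSS for 13 genes, 28.3%, compared with 35.6% of all. Within 50 kb the order was the other way round, with 33 genes or 71.7%, compared with 62.1% of all. For the 33 genes without an assigned peak the median was 39281 bp.

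Widths of the 20 peaks ranged from 398 to 1979 bp, with a median of 837.5 bp, and the median of all peaks was 947 bp. In the promoter class the median was 853 bp for the 7 peaks and 1050 bp for all 5416. In the distal class it was 751.5 bp for 10 peaks and 882 bp for all 7193. Multi-copy centres were found in 7 of the 20 peaks, 35%, beside 46.5% of all peaks. They were in 0 of the 7 promoter peaks, beside 2.62% of all promoter peaks. In the distal class they were in 5 of 10, or 50%, beside 81.2% of all, and in the proximal class in 2 of 3, beside 38.4%.

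**Figure D3:**
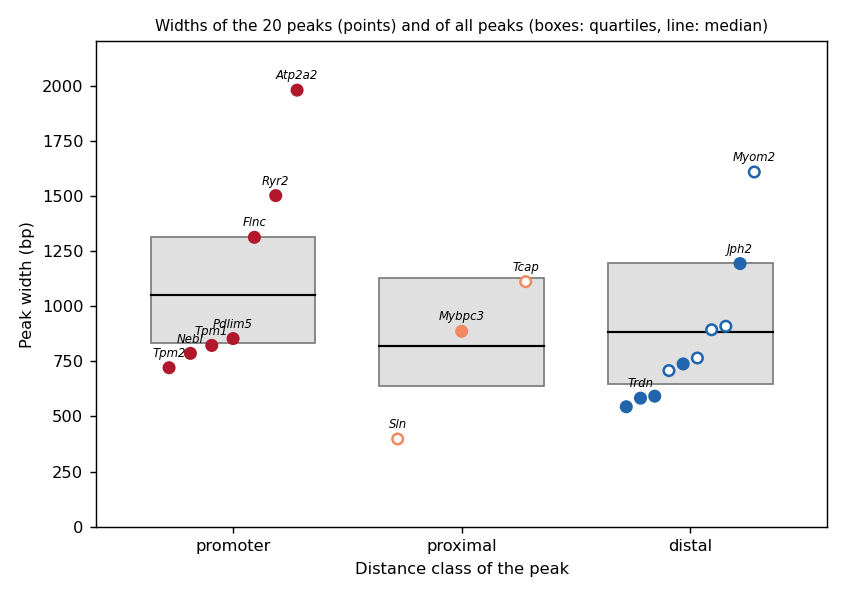
Width in bp of the 20 peaks, as points, by distance class, with open points for multi-copy centres. Grey boxes span the quartiles of all peaks in the class, and the black line is the median. Atp2a2 and Ryr2 lie above the promoter box, Tpm2, Nebl and Tpm1 lie below it, and Sln lies below the proximal box.

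Promoter composition differed between the 7 genes with promoter peaks and most of the 46 genes, although the ranges overlapped. The genes have 74 groups of TSSs, in which neighbouring TSSs lie within 1 kb of each other, and 7 groups had a peak midpoint within 1 kb. GC content of the promoter window was 61% to 79.3% in these 7, with a median of 66%, and 33.3% to 74.3% in the other 67, with a median of 51.7%. CpG observed/expected ratios were 0.57 to 1.04, with a median of 0.71, in the 7, and the other 67 had a median of 0.24. No group below 60% GC had a peak, and 59 of the 74 groups, 79.7%, were below it, as were 68.5% of the groups of all protein-coding genes. Each group is represented by its most upstream TSS. With the TSS of highest GC content in its place, 55 groups, 74.3%, were below 60%, beside 62.6% of all, and still 0 of them had a peak.

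**Figure D4:**
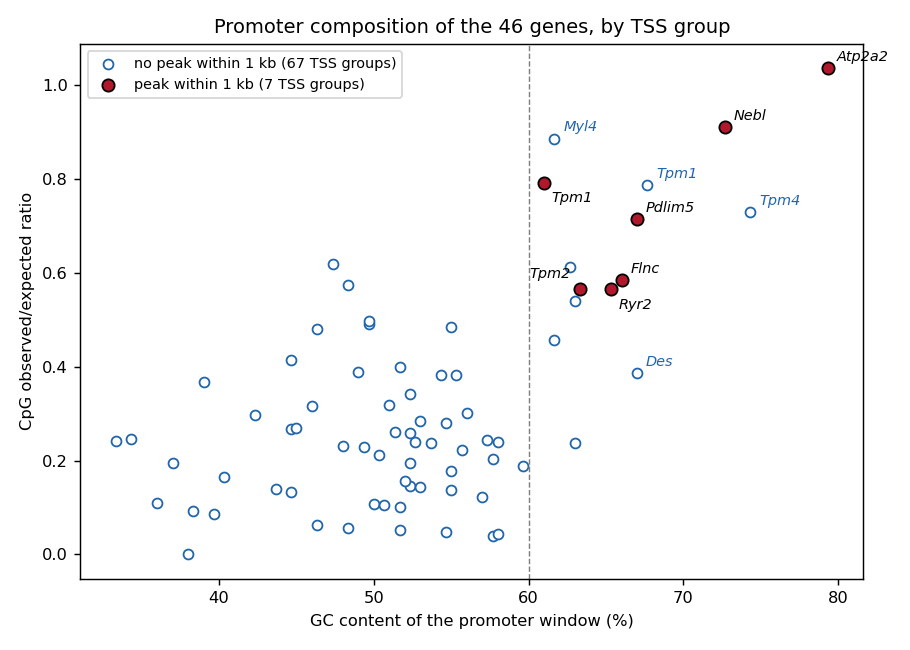
GC content in percent against the CpG observed/expected ratio of the promoter window, 250 bases before to 50 after the TSS, for 74 TSS groups of the 46 genes. Red points had a peak within 1 kb and open points had none; the dashed line stands at 60% GC. The 7 red points all lie to the right of the line, and open points there include Tpm4, Des and the upstream group of Tpm1.

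Peaks at promoters of all protein-coding genes followed GC content as well. A peak lay within 1 kb of 3.07% of TSS groups below 50% GC, 11.5% of those from 50% to below 60%, 37.9% from 60% to below 70%, and 79.7% from 70% up. Of the 46 genes, 0 of 26, 0 of 33, 5 of 12 and 2 of 3 groups had a peak in the same ranges. If each range had the rate of all genes, the 74 groups would have held 11.5 with a peak, and at the overall rate of 20.9% they would have held 15.5. The observed number was 7. The part of base composition in these counts was not tested.

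**Figure D5:**
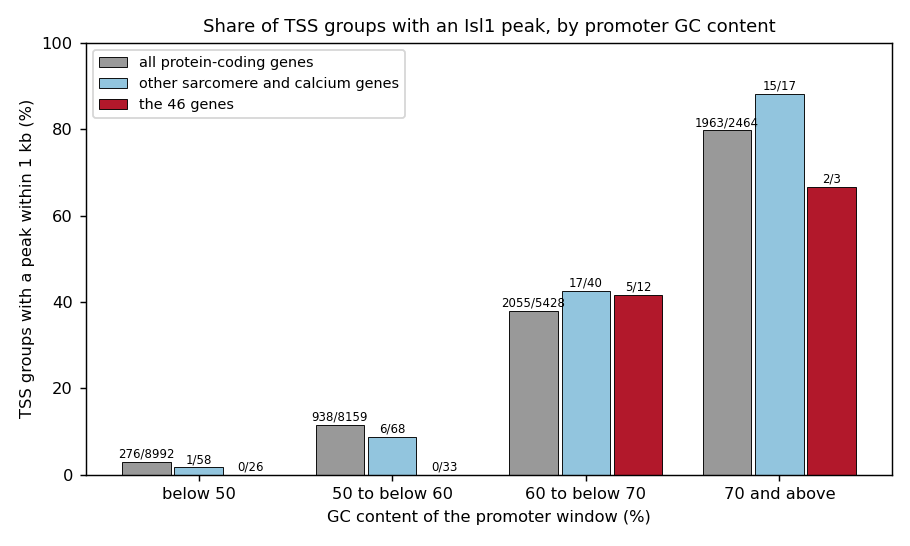
Percentage of TSS groups with a peak midpoint within 1 kb, by GC content of the promoter window, with the counts above each bar. The sets are all protein-coding genes, other sarcomere and calcium genes, and the 46 genes. Their TSS groups belong to 18116 protein-coding genes, to 112 of the 113 other genes and to all 46. The share is highest at 70% GC and above in all 3 sets, and the 46 genes have 0 of 59 groups with a peak below 60%.

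Short sequence strings known as factor sites were counted on both strands of the central 200 bp of each peak. The E-box, CANNTG, was in 9 of the 20 centres, 45%, beside 42.1% of all peak centres. The LIM-homeodomain type strings CTAATTG and CTAATGG were in 0 of 20, beside 0.412% of all, and the homeodomain core strings TAATTA and TAATTG, the latter contained in CTAATTG, in 0 of 20, beside 0.717%. The GATA type string is AGATAA, with G allowed as its last base and T as its leading base, and it was in 1, 5% beside 4.22% of all, at the Jph2 peak 51758 bp from the TSS. MCAT was in 2, 10% beside 2.67% of all, and AAGTG in 1, 5% beside 9.97%. The MEF2 site was in none of the 20 and in 0.0639% of all centres. Outside the peaks, the printed Ttn window had a MEF2 site at bases 35 to 44 and the printed Actc1 window a CArG box at bases 154 to 163. These windows are examples placed by a TSS. No share of promoters with such sites is given beside them, so they are not compared with the peak centres.

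A further 113 genes of the sarcomere, its nonmuscle relatives and calcium signalling gave a contrast. A peak was assigned to 52 of them, 46%, beside the background of 39.1% of protein-coding genes. A promoter peak was assigned to 39, 34.5%, beside a background of 24.2%. Relatives of the 46 genes were found both with and without a promoter peak, and expression was not measured. Actg1, a cytoplasmic actin, had one 54 bp from its TSS, and Actb, the other cytoplasmic actin, had no assigned peak, like Actc1, Acta1 and Acta2. Actn1 and Actn4, nonmuscle alpha-actinins, had promoter peaks and Actn2 did not. The nonmuscle myosin genes Myh9 and Myh14 and the light chains Myl9, Myl12a and Myl12b had promoter peaks, which none of the 10 thick filament genes did. Those 10 include Myh10, which is itself a nonmuscle heavy chain and had no assigned peak. No peak was assigned to Myl6, Tpm3, Tmod3, Flna, Calr or Calm3. The same held for the muscle genes Myh1, Myh2, Myh4, Myh8, Mybpc1, Mybpc2, Tnnc2, Tnni2, Tnnt1, Tnnt3, Neb, Nrap, Myom3 and Myot. Vim had 2 distal peaks with multi-copy centres.

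Other relatives with promoter peaks included Obsl1, Speg, Pdlim7, Fhl2, Nexn and Synm at the Z-disc and M-line, and Unc45a, Smyd2 and Hspb1 among assembly factors and chaperones, paralogs of Unc45b, Smyd1 and Cryab. In calcium handling they included Ryr3, Atp2a3, Jph1, Asph, Fkbp1a, Fkbp1b, Cacna1c, Cacna1d, Cacnb2, Cacna2d1, Calm2, Camk2d, Itpr2, Itpr3, Atp2b1, Stim1 and Orai1, and among natriuretic peptide genes Nppc, Npr2 and Npr3. Asph had 4 assigned peaks, and Cacna2d1, Hspb1, Npr2, Palld, Slc8a1 and Speg had 3 each. At the GC rates of all genes the 183 TSS groups of this set, from 112 of its genes, would have held 38.3 with a peak, and 39 had one. No test was made between this set and the 46 genes.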

How the data were processed

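Isl1 ChIP-Seq peaks were analysed from the 1 list the authors deposited for both replicates. According to the study's methods, bowtie2 aligned the reads to mm9, Picard 1.136 took out duplicates, and peaks were called with MACS14 and filtered against blacklisted regions. bedtools 2.15 kept areas common to the replicates and HOMER gave the closest TSS. The deposited columns are coordinates, distances in bp, RefSeq accessions and symbols. They hold no score. Starts are uncertain by 1 bp. Nothing in the labels says whether the replicates came from separate cultures.

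Of 14165 lines, 83 repeats were dropped, none of a named gene. All 46 genes are reported, and some genes of the further set are not reported here by name. The genes and lists were chosen with earlier results of these data known. TSSs, exons and UTRs came from GENCODE on the same assembly, and the 21027 protein-coding genes from a RefSeq table used for names only. Of the 20 distances, 11 were within 2 bp of the annotated one. Copies are the median number of genomic occurrences of each 31-base stretch in the central 200 bp, and at least 2 was called multi-copy. The CpG ratio is the observed number over that given by the C and G content. The promoter composition and TSS group counts were added after the peaks had been examined. RefSeq promoter sequences matched 40 of the 46 genes. Python 3.11.15 with pysam 0.24.0 and pandas 2.3.3 was used, and string counts and copy numbers were tested on simulated data.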

Additional observations from a re-analysis of the deposited data

How the results depend on the processing

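The list combines both replicates, so leaving out each replicate was not possible. No paired analysis was possible because the list has no column per replicate. Of the 48 alternatives computed for 17 results, 1 of them chosen after seeing the data, 43 stayed within the set limits of the value reported. Those limits were wide. A rise from 20 to 28 assigned peaks counted as within them, and a fall to 13 did not. A change of order also did for the GATA type string, at 5% beside 4.22% of all in the central 200 bp and 10% beside 10.9% in 400 bp. The number of genes with an assigned peak was 10 to 14 except that only 2 had at least 2 peaks, and the number with a promoter peak was 5 to 7. The number of assigned peaks fell from 20 to 13 with single-copy peaks only and to 10 within 10 kb of the assigned TSS, and rose to 28 with the closest protein-coding TSS of the annotation. Multi-copy centres numbered 2 with 75-base stretches in place of 7. Genes with any peak near a TSS numbered 33 within 50 kb in place of 13 within 10 kb. With that annotation, Pln gained 2 peaks, at 86275 and 255581 bp upstream, and 14 genes had a peak. Of the 4 Jph2 peaks, only that at 17486 bp stayed with Jph2. The Pln peaks are thus a part of the rise to 28, and the other added peaks are not reported here by gene. Peaks below the cutoff in either replicate are missing from the list, so a gene without an assigned peak was not shown to be unbound.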
